A study of Canis lupus familiaris with 10 samples.

Results

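MMP1 (ENSCAFG00000015054), CTSE (ENSCAFG00000010206) and EREG (ENSCAFG00000031443), 3 genes whose products cut proteins or signal to the cells around them, were followed through 10 RNA-seq libraries of canine atrium. They are 3 of the 31897 genes listed, and they were chosen by the study among its 20 leading differentially expressed genes (DEGs), on the same contrast of the same libraries. Their difference between the groups is therefore a description here, and no test of it is given. The CPVA group held 5 beagles that underwent thoracotomy and circumferential pulmonary vein ablation (CPVA), in which radiofrequency current was applied point by point along the root of the left pulmonary vein. The control group held 5 beagles with thoracotomy alone, and both groups were observed for 6 months. Age was not given for either group, and the sex of each canine was not given. Each library came from target atrial tissue, which in the CPVA group lay within 1 cm of the ablation line, and was built from oligo(dT)-selected mRNA.

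MMP1 encodes interstitial collagenase, a secreted zinc protease that is made as an inactive proenzyme and, once activated, cuts the fibrillar collagens of which scar and interstitial matrix are built. CTSE encodes cathepsin E, an aspartic protease of the endosomal compartment that is known from immune cells and from the lining of the stomach. EREG encodes epiregulin, a growth factor of the epidermal growth factor family that is shed from a membrane-bound precursor and acts on EGFR and related receptors, with PI3K and Akt among the pathways downstream. In the RefSeq gene order of another dog assembly, MMP1 lies among MMP13, MMP12, MMP3 and MMP8, and EREG lies between EPGN and AREG, further genes of its own family. The identifiers of these neighbours were not paired with symbols, so their levels were not analysed here.

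The values are FPKM, which scale the fragments of a gene by its length and by the library total, and the whole reads behind them were recovered from the spacing of the values. Library totals ranged from 15120163 reads in CPVA3 to 25592249 reads in CPVA2. The gene lengths behind the values were 1885 bases for MMP1, 1255 bases for CTSE and 1867 bases for EREG. Before the 3 genes are described, CPVA2 and CPVA3 have to be named as libraries that stood apart. The summed FPKM of 7 genes known from other cell types (CD5L, MARCO and OLR1 of macrophages, PPBP of platelets, IGLV2-33 of antibody-producing cells, DNASE1L3 of dendritic and endothelial cells, BNC1 of mesothelium) was 206 in CPVA2 and 820.1 in CPVA3. In CPVA1, CPVA4 and CPVA5 it ranged from 0.768 to 3.93, and in the control group from 0.493 to 1.51. In CPVA2 and CPVA3, 0 of the 7 genes were at 0 reads, while CD5L, MARCO, OLR1, IGLV2-33 and BNC1 were all at 0 in CPVA1. The study listed these 7 genes too for their difference on these libraries. The adjusted p it gives for BNC1, IGLV2-33 and SPOCK3, another gene of its list, is above its own limit for a DEG. The part of the 7 genes in the levels of MMP1, CTSE and EREG was not tested. In bulk tissue, more cells of a type and more RNA per cell cannot be told apart. CPVA3 also gave a smaller share of its reads to its 10 leading genes, 17.7% against 24.7% to 32.5% elsewhere. The markers of atrial muscle itself could not be matched to identifiers and were not analysed here.

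All 3 genes had a higher mean FPKM in the CPVA group, but the libraries behind this mean were not the same. MMP1 was high in CPVA2 and CPVA3 and lay within or below the control range in CPVA1, CPVA4 and CPVA5. CTSE was above each control library in each of the 5 CPVA libraries, and EREG was above the control group in reads in 4 of them. As background, limma called 0 of the 19222 genes tested (0%) when an adjusted p below 0.05 and a log2 difference of 1 or more in either direction were required. The study called the 3 genes with DESeq2, which was not run here, so this count is no verdict on them. Without adjustment of p, 662 genes (3.44%) passed, and limma voom on the reads called 0 genes, or 620 unadjusted. Each CPVA library was above each control library in FPKM for 137 of the genes tested (0.713%), among them CTSE and EREG, and CPVA3 was highest with CPVA2 next for 3160 genes (16.4%), among them all 3. Since the contrast chose the genes, nothing is read from these shares.

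From CPVA1 to CPVA5, the reads of MMP1 numbered 1, 1736, 4063, 5 and 10, and from Control1 to Control5 they numbered 72, 11, 7, 10 and 5. In FPKM, its level was 0.0260, 36.0, 142.6, 0.133 and 0.237 in CPVA1 to CPVA5. The levels in Control1 to Control5 were 1.82, 0.255, 0.145, 0.260 and 0.133 FPKM. The groups overlapped, CPVA1 was below each control library, and CPVA4 had as many reads as the lowest of them, Control5, with 5 each. Mean FPKM was 35.8 ± 61.7 (SD, n = 5) with CPVA and 0.522 ± 0.727 (SD, n = 5) without, whereas the medians were 0.237 and 0.255 FPKM. The mean of the CPVA group was thus higher and its median lower than that of the control group. Of the 25 pairs of a CPVA and a control library, the CPVA library had the higher FPKM in 12. CPVA2 and CPVA3 held 98.0% of all reads of MMP1 in the 10 libraries. In CPVA3, the collagenase gene was the 554th gene from the top by FPKM and exceeded 97.1% of the genes tested. In CPVA4 it exceeded 8.10% of them.

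**Figure D1:**
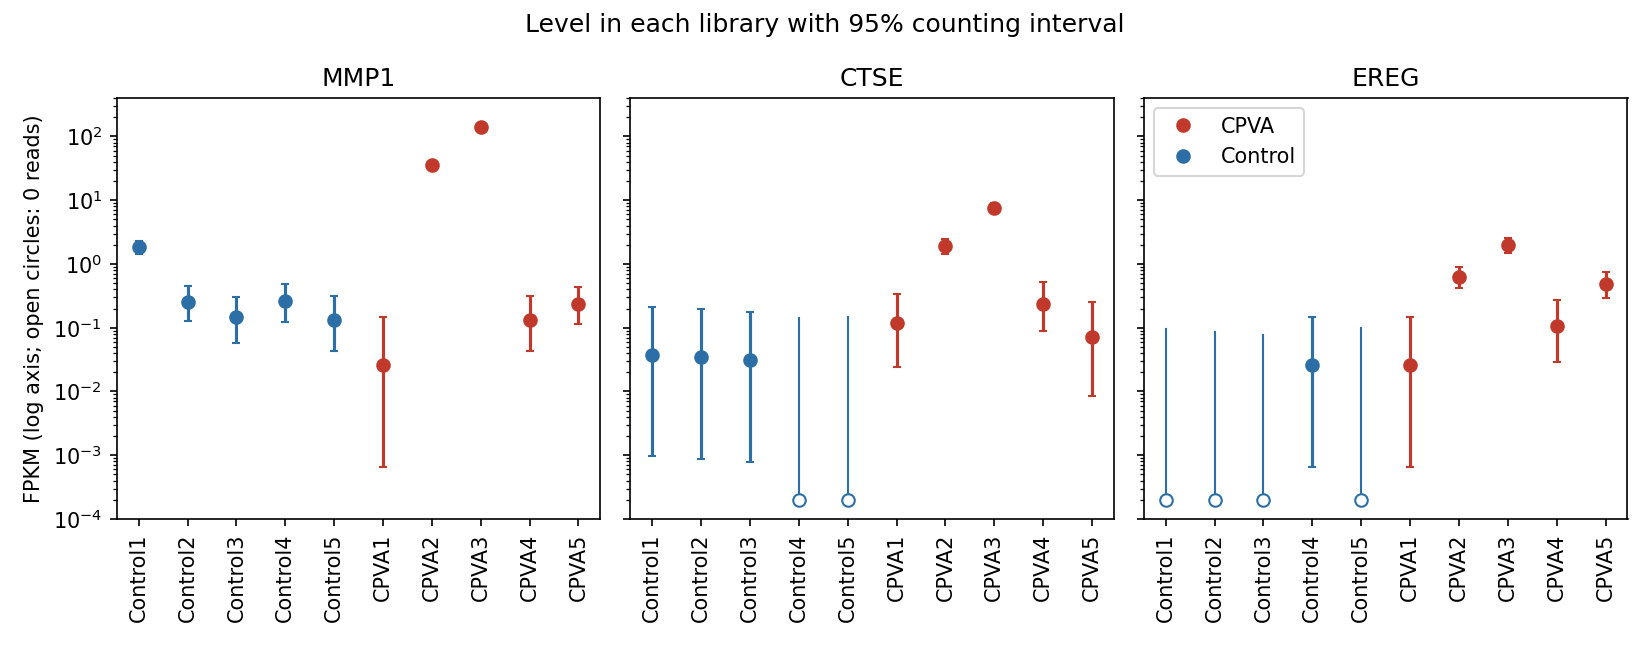
FPKM of MMP1, CTSE and EREG (vertical axis, log scale) in each of the 10 libraries (horizontal axis), with blue points for the control group and red points for the CPVA group. Bars are exact 95% Poisson intervals of the reads, open circles at the foot are libraries with 0 reads, and CPVA3 is the highest library in each panel, at 142.6 FPKM for MMP1, 7.64 FPKM for CTSE and 1.98 FPKM for EREG.

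Ordered by level, MMP1 was 3.96 times higher in CPVA3 than in CPVA2 and 19.8 times higher in CPVA2 than in the next library, which was Control1. Control1 in turn was 7.00 times above Control4. The exact 95% Poisson intervals of these neighbours did not overlap, whereas from Control4 downwards those of each pair of neighbours overlapped. Only neighbours in this order were compared. These intervals cover counting error only and leave out the spread between canines. Because copies made by PCR are not independent molecules, the intervals may also be too narrow. The floor of 3 reads used below is a set value and not the limit of an interval.

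The control library with the most MMP1 was Control1, with 72 reads and 1.82 FPKM (95% Poisson interval 1.42 to 2.29). The other 4 control libraries lay between 0.133 and 0.260 FPKM, with intervals that reached at most 0.477 FPKM. Control1 was also above CPVA1, CPVA4 and CPVA5 in MMP1, and the upper limits of these 3 libraries were 0.145, 0.309 and 0.435 FPKM. Without Control1, the control group held 33 reads of MMP1 in 4 libraries, or 0.372 reads per 1000000 (RPM, 95% Poisson interval 0.256 to 0.522). CPVA1, CPVA4 and CPVA5 together held 16 reads, or 0.255 RPM (0.146 to 0.414), and these intervals overlapped. CTSE and EREG had 1 and 0 reads in Control1. On that 1 read, Control1 was the highest control library for CTSE in FPKM, although Control2 and Control3 also had 1 read each. Each control library had 0 or 1 read of these genes, too few to rank the control libraries by them. Among the other 17 genes of the study's list, Control1 was the highest control library for 4, BNC1, CRB2, IL1RL1 and PPBP, with at most 15 reads. Over all genes tested, Control1 was the highest control library and stood apart from the other 4, with a gap above 0.71 of the range of the group, for 226 genes (1.18%). By the same measure, 467 genes stood apart in Control2, 164 in Control3, 505 in Control4 and 75 in Control5. Of the 11657 genes tested with at least 72 reads in Control1, 1 gene other than MMP1 was at least 7.00 times above the next control library. This was ENSCAFG00000012065, named after its values were seen, with 2280 reads in Control1 and a ratio of 8.53. Both limits were the values of MMP1 itself, in the control library picked for having the most MMP1. The other control libraries were not ranked in this way, so nothing is read from this count.

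**Figure D2:**
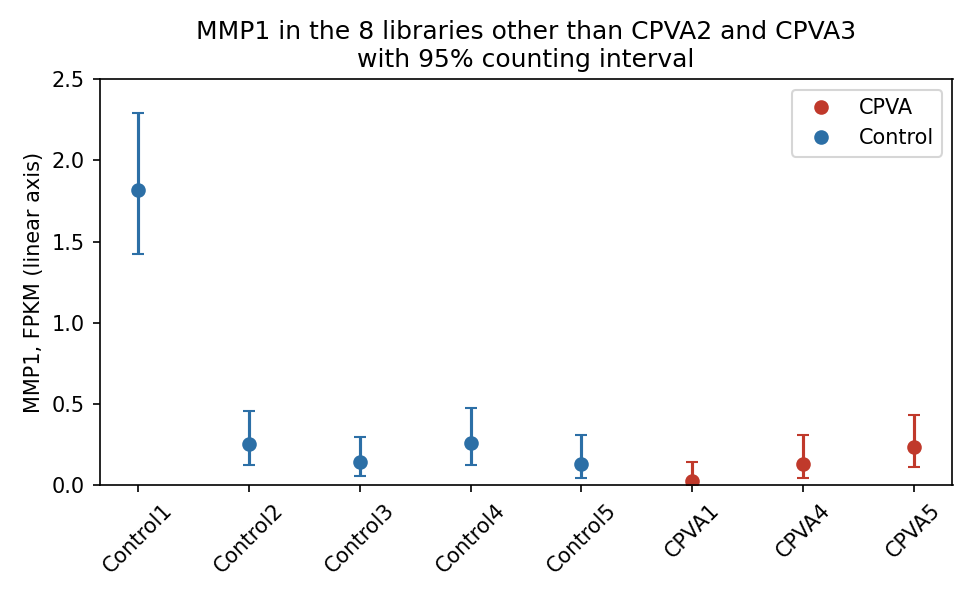
FPKM of MMP1 (vertical axis, linear scale) in the 8 libraries other than CPVA2 and CPVA3, with blue points for control libraries, red points for CPVA libraries and exact 95% Poisson intervals as bars. Control1 lies at 1.82 FPKM, and the other 7 libraries lie between 0.0260 and 0.260 FPKM.

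The reads of CTSE, the gene of the endosomal protease, numbered 3, 61, 145, 6 and 2 from CPVA1 to CPVA5 and 1, 1, 1, 0 and 0 from Control1 to Control5. Its level was 0.117, 1.90, 7.64, 0.239 and 0.0711 FPKM in CPVA1 to CPVA5. In the control group it was 0.0379, 0.0348 and 0.0311 FPKM in Control1 to Control3 and 0 in Control4 and Control5. The groups did not overlap in FPKM or in reads, and CTSE was the only gene of the study's 20 for which all 5 CPVA libraries had more reads than each control library. Mean FPKM was 1.99 ± 3.25 (SD, n = 5) with CPVA and 0.0208 ± 0.0191 (SD, n = 5) without, and the medians were 0.239 and 0.0311 FPKM. Against a floor of 3 reads in each control library, the CPVA mean was at least 18.2-fold higher.

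The margin outside CPVA2 and CPVA3 was a few reads. CPVA5 had 2 reads of CTSE against 1 in Control1, and the Poisson intervals of all neighbours from CPVA4 downwards overlapped. Summed over libraries, CPVA1, CPVA4 and CPVA5 held 11 reads of CTSE, or 0.175 RPM (95% Poisson interval 0.0874 to 0.313), against 3 reads in the control group, or 0.0273 RPM (0.00563 to 0.0798). These intervals did not overlap, but they take no account of the spread between canines. In CPVA3, CTSE exceeded 56.9% of the genes tested in FPKM, and in CPVA5 it exceeded 6.16%.

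Those of EREG, the growth factor gene, numbered 1, 30, 56, 4 and 20 from CPVA1 to CPVA5, and a single read in Control4 was the only one in the control group. Its level was 0.0263, 0.628, 1.98, 0.107 and 0.478 FPKM in CPVA1 to CPVA5, against 0.0262 FPKM in Control4 and 0 in the other control libraries. CPVA1 and Control4 had 1 read each, so that they differed in FPKM by their library totals alone and the groups met in reads. Mean FPKM was 0.645 ± 0.789 (SD, n = 5) with CPVA and 0.00524 ± 0.0117 (SD, n = 5) without, and the medians were 0.478 and 0 FPKM. Against the floor of 3 reads in each control library, the CPVA mean was at least 8.74-fold higher. EREG varied less within the CPVA group than the proteases did. The SD of FPKM was 122% of the mean for EREG, 163% for CTSE and 172% for MMP1, a difference that was not tested.

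In EREG, CPVA5 stood close to CPVA2 instead of close to the control group. CPVA2 was 1.31 times above CPVA5, within counting error, and CPVA5 was 4.46 times above CPVA4 with intervals that did not overlap. CPVA1, CPVA4 and CPVA5 together held 25 reads of EREG, of which 20 were in CPVA5. This is 0.398 RPM (95% Poisson interval 0.258 to 0.588), against 0.00911 (0.000231 to 0.0507) in the control group. As for CTSE, the intervals of summed reads take no account of the spread between canines. For EREG, 22.3% of all reads lay in CPVA1, CPVA4 and CPVA5, while the share was 5% for CTSE and 0.270% for MMP1. At its highest, in CPVA3, EREG exceeded 31.2% of the genes tested.

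Between CPVA2 and CPVA3, the 3 genes kept nearly the same proportion. CPVA2 held 29.9% of the MMP1 reads of this pair of libraries (exact Clopper-Pearson 95% interval 28.8 to 31.1), 29.6% of the CTSE reads (23.5 to 36.4) and 34.9% of the EREG reads (24.9 to 45.9). Over all genes, CPVA2 held 62.9% of the reads of the pair. In FPKM, the level in CPVA2 was 25.2% of that in CPVA3 for MMP1, 24.9% for CTSE and 31.7% for EREG. For the 15 other genes of the study's list that were highest in CPVA3, it ranged from 20.9% to 30.2%, with a median of 25.1%.

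The other CPVA libraries separated the 3 genes. Among the 18 genes highest in CPVA3, EREG was in CPVA5 at 24.1% of its CPVA3 level, against 0.931% for CTSE, 0.166% for MMP1 and at most 2.83%, in BNC1, for the 15 other genes. In CPVA4, the level was 5.40% of that in CPVA3 for EREG and 3.13% for CTSE, both above the highest of the 15 other genes, PPBP at 1.55%, whereas MMP1 was at 0.0930%. The values of EREG and CTSE in CPVA4 rest on 4 and 6 reads, too few to place them above PPBP beyond counting error. In CPVA1, CTSE at 1.53% and EREG at 1.32% were again above the highest of the others, DNASE1L3 at 0.328%, although EREG rests there on 1 read and CTSE on 3. MMP1 was at 0.0183% in CPVA1, also on 1 read. The remaining genes of the list, NDST4 and SPOCK3, named after their values were seen, were highest in CPVA5, at 1788% and 385% of their level in CPVA3. That level in CPVA3 rests on 2 reads for NDST4 and on 31 reads for SPOCK3. EREG was thus not the only gene of the list with a high level in CPVA5. These shares are descriptive, because the study chose all 20 genes on these libraries. Of its 20 genes, 11 had more reads than each control library in 2 CPVA libraries, MMP1 among them, 3 in 3 libraries, 5 in 4 libraries, EREG among them, and 1, CTSE, in all 5.

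**Figure D3:**
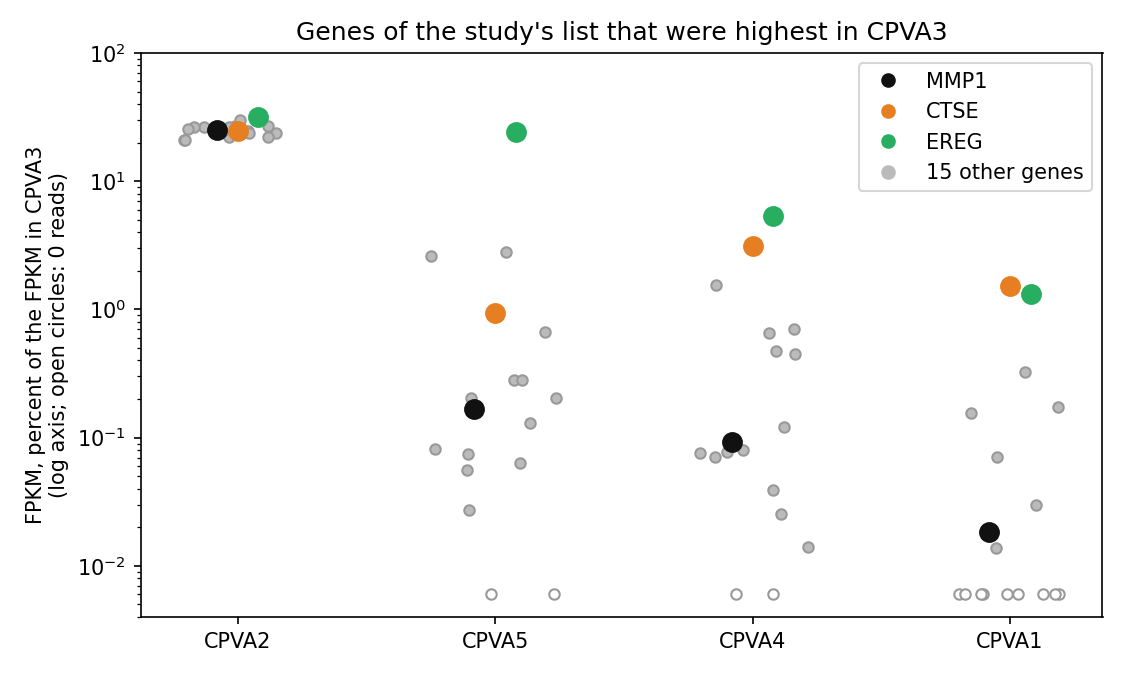
FPKM in CPVA2, CPVA5, CPVA4 and CPVA1 as a percentage of the FPKM in CPVA3 (vertical axis, log scale) for the 18 genes of the study's list that were highest in CPVA3. MMP1 is black, CTSE orange, EREG green and the 15 other genes grey, open circles are genes with 0 reads, and the genes lie together in CPVA2 while EREG is the highest of these 18 at 24.1% in CPVA5.

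Within a library, the levels per gene length can be set against each other. The FPKM of MMP1 was 18.9 times that of CTSE in CPVA2 (95% counting interval 14.7 to 24.9) and 18.7 times in CPVA3 (15.8 to 22.2). In CPVA4 the ratio was 0.555 (0.134 to 2.18) and in CPVA1 it was 0.222 (0.00423 to 2.76), both with intervals that included 1. In CPVA5, MMP1 was 3.33 times CTSE (0.709 to 31.2), also with 1 inside the interval. On a single CTSE read each, the ratio was 7.32 in Control2 (1.06 to 315) and 4.66 in Control3 (0.599 to 210.0). In Control1 it was 47.9 (8.33 to 1919), again on 1 CTSE read. The FPKM of EREG was 0.331 of that of CTSE in CPVA2 (0.206 to 0.520) and 0.260 in CPVA3 (0.187 to 0.356). In CPVA5 the order was turned, with EREG at 6.72 times CTSE (1.63 to 59.3) on 20 and 2 reads. MMP1 was 71.9 times EREG in CPVA3 (55.2 to 95.3), 57.3 times in CPVA2 (40.0 to 85.2) and 0.495 times in CPVA5 (0.207 to 1.11).

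Leaving out libraries moved the 3 genes in different ways. The ratio of the mean FPKM of MMP1 in the CPVA group to that in the control group was 68.5 with all libraries, 17.4 without CPVA3 and 180.5 without Control1. Without CPVA2 and CPVA3 it was 0.252, and without these and Control1 it was 0.665, so that the mean of the CPVA group was then below that of the control group. For CTSE, the lower bound of 18.2 was 5.30 without CPVA3 and 1.30 without CPVA2 and CPVA3. The value of 1.30 rests on 11 CPVA reads, whose counting error the bound leaves out, so it is not shown to exceed 1. For EREG, the lower bound of 8.74 was 4.20 without CPVA3 and 2.76 without CPVA2 and CPVA3. The value of 2.76 rests on 25 CPVA reads, of which 20 were in CPVA5. On the log2(FPKM + 0.1) scale, which understates the change of weakly expressed genes, the difference between the group means was 2.36 for MMP1 (standard error 1.86), 2.59 for CTSE (0.94) and 2.17 for EREG (0.66). Without CPVA2 and CPVA3, these differences were -0.99, 0.96 and 1.24. They came from a fit without the filter on mean FPKM, which CTSE and EREG did not pass in the remaining libraries.

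**Figure D4:**
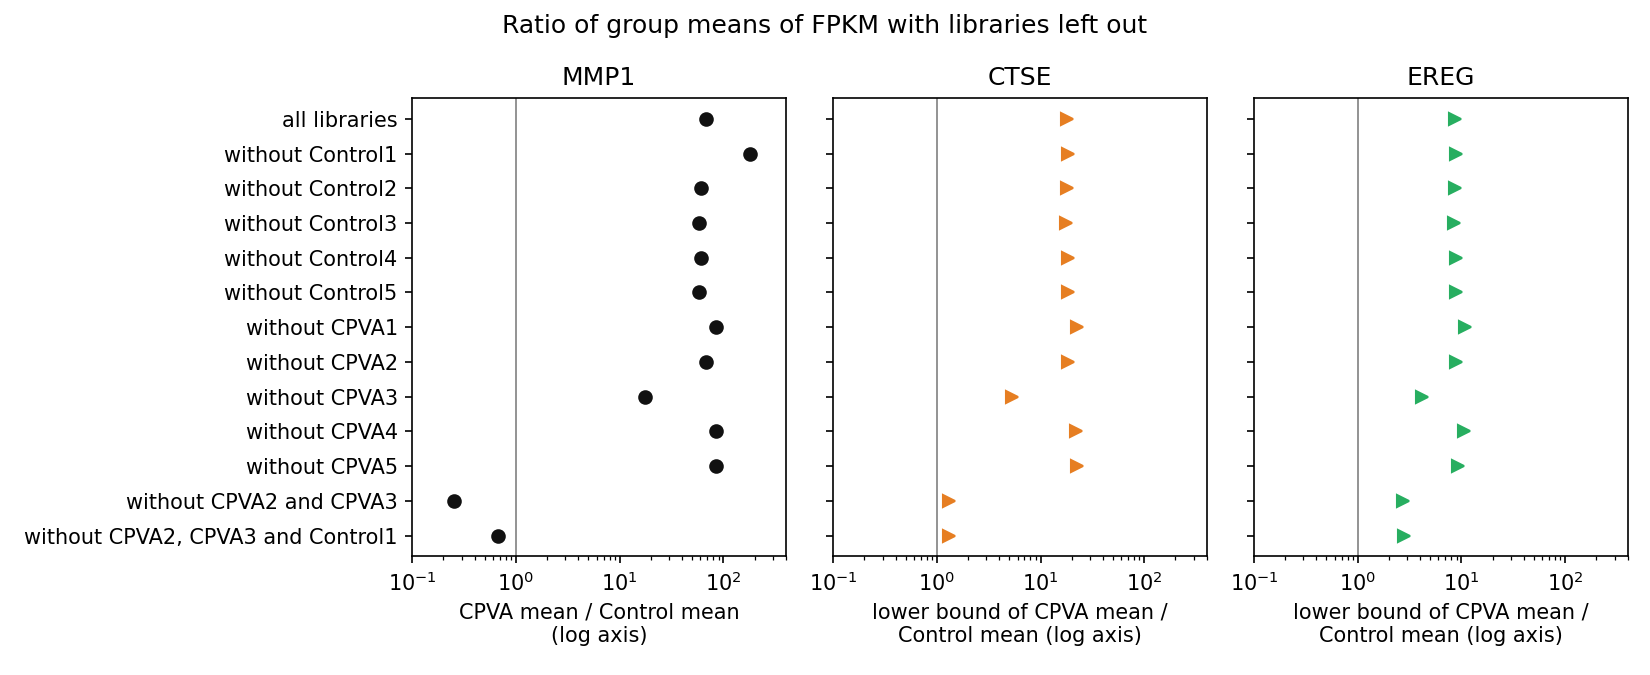
Ratio of the mean FPKM of the CPVA group to that of the control group (horizontal axis, log scale) with all libraries and with the libraries named on the vertical axis left out. Circles are ratios, for MMP1, and arrowheads are lower bounds against 3 reads in each control library, for CTSE and EREG. Without CPVA2 and CPVA3, MMP1 falls to 0.252, left of the grey line at 1, and CTSE and EREG are drawn at 1.30 and 2.76. The bounds leave out the counting error of the CPVA reads, which then number 11 for CTSE and 25 for EREG.

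The likeness of patterns was measured by Pearson's r of log2(FPKM + 0.1) over the 10 libraries. All genes were measured in the same libraries, so their values share the depth of each library. Because CPVA2 and CPVA3 stood apart, r over the other 8 is given beside it. CTSE and EREG had r = 0.89 over 10 libraries and 0.43 over 8. CTSE and MMP1 had r = 0.90 and -0.29, and EREG and MMP1 had r = 0.80 and -0.12. In the 8 libraries these values rest on few reads, so no relation is read from them. The study chose the other 17 genes of its list on the same contrast, so nothing is read from their order by r. Among these 17 genes, those most like MMP1 over 10 libraries were MARCO, a scavenger receptor of macrophages, with r = 0.98 (0.71 over 8), IGLV2-33, an immunoglobulin light chain segment, with 0.97 (0.56), and IL1RL1, the receptor of interleukin 33, with 0.97 (0.54). The other macrophage genes named above, CD5L and OLR1, had r = 0.96 (0.29 over 8) and 0.95 (-0.04 over 8) with MMP1. Those most like CTSE were the platelet chemokine gene PPBP with r = 0.98 (0.76 over 8), CRB2, a gene of epithelial polarity, with 0.97 (0.34) and the chemokine gene CCL20 with 0.97, which had 0 reads in each of the 8. Those most like EREG were CRB2 with r = 0.93 (0.96 over 8), PPBP with 0.92 (0.66) and the transcription factor gene BNC1 with 0.92 (0.86). Over the 8 libraries alone, SPOCK3 with r = 0.97 and NDST4 with 0.95, named after their values were seen, were also close to EREG, with 0.86 and 0.61 over 10. In each of CRB2, BNC1, SPOCK3 and NDST4, the highest of the 8 libraries was CPVA5, with 9, 7, 177 and 53 reads. Over the 19221 other genes tested, r reached at least 0.9 for 658 genes (3.42%) with MMP1, 671 (3.49%) with CTSE and 265 (1.38%) with EREG.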

How the data were processed

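The authors sequenced mRNA of 10 atrial samples and deposited 1 table of FPKM, with 1 column per library and replicates not pooled. The submitters' processing notes name CASAVA, HISAT2, featureCounts and the build CanFam3.1, and versions are not given in the sources used here. Each column was matched to a sample by name. Symbols came from the study's list of 20 genes, because the RefSeq table at hand paired 0 identifiers of the table with symbols. Lists of other proteases, growth factors and cell type markers could therefore not be scored.

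FPKM is reads divided by gene length and library total, so ratios between libraries gave the whole reads, to a relative tolerance of 1e-09. They made up at least 99.9976% of each library total. For limma 3.58.1 (R 4.3.3, lmFit and eBayes with trend), log2(FPKM + 0.1) was used where mean FPKM reached 0.1, with Benjamini-Hochberg adjustment. This filter was dropped for the log2 differences of the 3 genes without CPVA2 and CPVA3. The paper names DESeq2, which was not run. Intervals used scipy 1.17.1 (Python 3.11.15). The steps were tested on simulated data.

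Groups came from the sample titles. Each library counts as 1 canine, and no pair held identical values. The members, lists and the rule for named genes were chosen with earlier results of these data known. The rule names the 3 genes and, for each, the 3 genes of the study's list with the highest r. Alternatives covered the pseudocount, filter, scaling, replicate block, voom and each library left out. Leaving out CPVA2 and CPVA3, with or without Control1, and the ratios of means with libraries left out were chosen after seeing the data.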

Additional observations from a re-analysis of the deposited data

Results flagged for a closer look

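In 4 of the 6 groups of 5 libraries (3 genes, 2 groups), 1 library stood further from the others than Dixon's 95% limit of 0.71 for the gap as a share of the range, on linear FPKM. The limit is set so that chance gives about 1 in 20 groups of normally distributed values. The count of 4 is not read against that share, because the genes were chosen on these values and FPKM is skewed. Over all genes tested, 1 control library stood apart at the high end for 1437 genes (7.48%). For MMP1, CPVA3 stood apart in the CPVA group with a gap of 0.748, and Control1 stood apart in the control group with a gap of 0.925. For CTSE, CPVA3 stood apart in the CPVA group with a gap of 0.759. For EREG, Control4 stood apart in the control group with a gap of 1, the value that a single read against 0 in the other 4 libraries always gives. On log2(FPKM + 0.1), the gap of CPVA3 was 0.195 for MMP1 and 0.355 for CTSE, below the limit, and that of Control1 for MMP1 was 0.795, still above it.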

How the results depend on the processing

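The number of genes called was 0 with limma. It was 1 after scaling by median of ratios, 1 for a pseudocount of 0.01, 1 without CPVA2 and CPVA3, 662 at an unadjusted p under 0.05, and from 0 to 4 with each library left out (4 without CPVA1, 3 without Control4, 1 each without Control1, Control3 and CPVA5). It stayed 0 with all genes kept, with those of mean FPKM 1 or more, for a pseudocount of 1, with voom and without CPVA2, CPVA3 and Control1. The replicate block also gave 0, with 589 genes at an unadjusted p under 0.05. The numbers in the titles were not taken as pairs. The deviations of same-numbered libraries correlated between -0.198 and 0.0893, and 0 of 5 libraries matched best with their own number. Whether same-numbered libraries shared a day or a batch was not tested. The log2 difference of MMP1 reversed to -0.99 without CPVA2 and CPVA3 and to -0.45 without these and Control1, and its ratio of means to 0.252 and 0.665. With 1 library left out the log2 difference ranged from 0.86 to 3.40. With pseudocounts of 0.01 and 1, the log2 difference was 4.56 and 0.60 for EREG, below 1 in the latter case, 4.40 and 1.01 for CTSE, and 2.23 and 2.07 for MMP1. CTSE and EREG kept their direction in each alternative run, EREG not being fitted at mean FPKM 1 or more. Without CPVA2 and CPVA3 both fell below the filter of mean FPKM 0.1, and their values there came from a fit without it. Genes with each CPVA library above each control library numbered 137. There were 84 among genes of mean FPKM 1 or more, 228 without CPVA2 and CPVA3, and 149 to 764 with 1 library left out, the most without CPVA1. Leaving out libraries can only keep or raise this number, apart from genes that move across the filter. Genes with Control1 apart numbered 226, or 118 on the log2 scale, 1787 without a filter and 68 at mean FPKM 1 or more. Unadjusted calls fell to 176 with a pseudocount of 1, 281 at mean FPKM 1 or more, 429 without CPVA2 and 360 without CPVA2 and CPVA3, and numbered 1359 without CPVA1. The number highest in CPVA3 with CPVA2 next stayed within 1.5 times of 3160. Depth limits CTSE and EREG, which had 0 or 1 read in each control library.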
